A study of Caenorhabditis elegans with 36 samples.

Results

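Polysome-associated RNA of *C. elegans* carrying the *wrm15* allele of *ppp-1* was compared with that of animals carrying the *wrm10* allele. Members of the comparison were the loci with a single gene name that reached 1 FPKM in at least 1 of the 2 polysome groups, which left 12303 of the 41875 loci in the deposited table. FPKM counts sequenced fragments relative to the length of the transcript and to all mapped fragments of the library. The study sequenced total, monosome-associated and polysome-associated RNA of WT (Bristol N2), *ppp-1(wrm10)* and *ppp-1(wrm15)* populations, below *wrm10* and *wrm15*, with 4 libraries in each of 9 groups, 36 in all. All animals were synchronized, gravid, untreated adults at day 1 of adulthood that had been fed OP50 bacteria. The polysome fraction of a sucrose gradient excluded mRNAs with a pair of ribosomes, and the monosome fraction held the 80S peak. Both alleles are dominant point mutations from a chemical mutagenesis screen for long life and had been outcrossed to N2. Each genotype is 1 strain, so the allele and any other difference between the strains cannot be told apart. The values are pooled into 1 FPKM per group, so no spread between the 4 libraries is known, no test was possible and depth is unknown. In what follows, a difference is log2((*wrm15* + 0.1)/(*wrm10* + 0.1)) with levels in FPKM, positive where *wrm15* was higher, and a gene is counted when it passes 2-fold or 1.5-fold.

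*ppp-1* encodes the gamma subunit of eIF2B, the exchange factor that reloads the initiation factor eIF2 with GTP so that it can bring the initiator tRNA to the ribosome. Stress-activated kinases, GCN-2 and PEK-1 in the worm, phosphorylate eIF2, which then inhibits eIF2B. This integrated stress response lowers initiation on most mRNAs while a few, such as that of the transcription factor ATF4, are translated more. The amount of an mRNA in polysomes depends both on how much of it the animal contains and on how heavily ribosomes load it. Total RNA, given beside the polysome value, measures the first of these.

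The polysome RNA of the 2 mutants was close for most genes. Of the 12303 members, 10091 (82.0%) differed by no more than 1.2-fold, and the median difference was 0.03. At 2-fold, 70 members (0.569%) were higher in *wrm15* and 107 (0.87%) were lower. At 1.5-fold the counts were 176 (1.43%) and 305 (2.48%). Protein-coding genes made up 11873 members, of which 35 (0.295%) passed 2-fold upward and 55 (0.463%) downward, while 1.04% and 1.87% (222 genes) passed 1.5-fold in these directions. The other 430 members, 3.50% of all, held 87 of the 177 loci past 2-fold, or 49.2%, and 53 of those 87 were listed at 0 in 1 of the mutants. Low levels carried most of the protein-coding differences. Of the 90 protein-coding genes past 2-fold, 48 were under 2 FPKM in the higher mutant. With at least 5 FPKM there, 13 were higher in *wrm15* and 8 were lower, of 8677. None of the 1163 protein-coding members at 100 FPKM or more passed 2-fold. Just inside the threshold stood *pud-2.1* at 1.01, and just outside it *lipl-1* at 0.99.

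**Figure D1:**
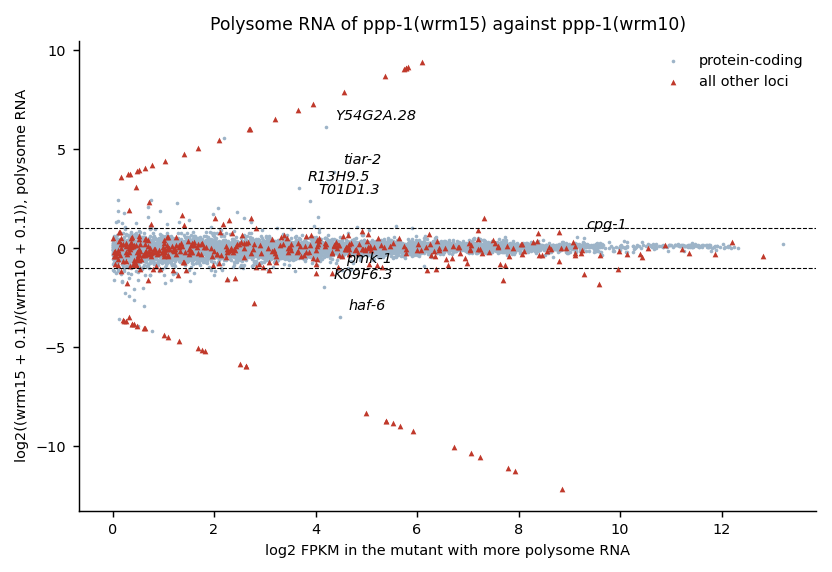
Each point is 1 of 12303 members, with its log2 FPKM in the mutant that had more polysome RNA on the x axis and its log2 difference between *wrm15* and *wrm10* on the y axis. Dashed lines mark 2-fold. Protein-coding genes (blue) lie mostly between the lines, while other loci (red triangles), many of them at 0 in 1 mutant, form the 2 diagonal arms.

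*tiar-2*, which encodes an RNA-binding protein of the TIA-1/TIAR family found in stress granules, was high in *wrm15* and low in both other genotypes. It lies on chromosome II, 12768686 to 12774414 on the plus strand. Its polysome level was 1.59 FPKM in WT, 1.3 in *wrm10* and 20.7 in *wrm15*, a ratio of 14.6 between the mutants with 0.1 FPKM added to each. Total RNA stood at 2.69, 2.72 and 17.5 FPKM in the same order, and monosome RNA at 1.77, 1.85 and 17.6. The higher level was present in all 3 fractions, with differences of 3.87, 2.64 and 3.19 in polysome, total and monosome RNA.

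Other genes were also near the WT level in *wrm10* and higher in *wrm15*. This place of WT, within 1.5-fold of *wrm10* and outside 1.5-fold of *wrm15*, held for 19 of the 35 protein-coding genes past 2-fold upward. *fozi-1*, a zinc finger and formin-homology transcription factor of the mesoderm, had 1.2 FPKM in WT polysomes, 1.12 in *wrm10* and 3.95 in *wrm15*, with a difference of 1.73. *C33B4.4* on chromosome II went from 2.00 to 6.03 FPKM between the mutants and stood at 1.88 in WT. Its total RNA differed more, by 2.07 against 1.55 in polysomes. Among well-expressed genes of this kind was *sodh-1* (annotated as *adh-1*), an alcohol dehydrogenase, at 24.7 FPKM in WT, 22 in *wrm10* and 48.0 in *wrm15*. *Y39G10AR.32* had 29.1, 28.9 and 59.4 FPKM, and *F45D3.4* had 13.1, 13.3 and 28.2. *mig-14*, the Wntless homolog that carries Wnt ligands to the cell surface, was short of 2-fold at 8.86, 8.41 and 16.7 FPKM. The most extreme protein-coding difference, 6.12 for *Y54G2A.28*, was not matched in the other fractions. That gene had 0.169 FPKM in *wrm10* and 18.6 in *wrm15* polysomes, yet its difference was 0.72 in total and -1.32 in monosome RNA.

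For a further set of genes *wrm15* was near WT and *wrm10* stood apart. This held for 7 of the 35 genes past 2-fold upward and 18 of the 55 past 2-fold downward, while for 27 of the 55 WT was near *wrm10* and *wrm15* stood apart. *haf-6*, an ABC half-transporter needed for efficient RNA interference, had the largest difference among those with at least 5 FPKM. It lies on chromosome I, 1162880 to 1175809 on the minus strand, and had 1.80 FPKM in WT polysomes, 22.2 in *wrm10* and 1.92 in *wrm15*, a ratio of 11 of *wrm10* over *wrm15* with 0.1 FPKM added to each. The total values were 4.59, 19.9 and 4.92 FPKM and the monosome values 3.23, 17.7 and 3.91. Only its 3′ end meets a neighbour on the opposite strand, *Y48G8AL.7*, whose polysome difference was -0.12. *K09F6.3* on chromosome II was likewise high in *wrm10* alone, with 6.49, 18 and 4.62 FPKM in WT, *wrm10* and *wrm15* polysomes, and differences of -1.94, -1.63 and -1.58 in polysome, total and monosome RNA.

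In the opposite direction, *T01D1.3* was low in *wrm10* alone. Its polysome RNA was 15.0 FPKM in WT, 2.77 in *wrm10* and 14.8 in *wrm15*, and its total RNA was 6.20, 1.47 and 5.75. *pgp-1*, a P-glycoprotein efflux pump of the intestine, stood at 18, 7.2 and 15.6 FPKM, and *C27H5.4* (annotated as *mfsd-13.2*) at 7.70, 2.59 and 6.58. The neighbouring cytochrome P450 genes *cyp-13A4* and *cyp-13A5* differed in the same direction. *cyp-13A5* had 2.96, 1.45 and 5.44 FPKM in polysomes and *cyp-13A4* had 1.26, 0.474 and 1.62, so that both were lowest in *wrm10*. Of the 39 P450 members, 3 passed 2-fold upward, the other being *cyp-34A9* (1.25), and none downward, with a median of 0.10. Over all members 0.569% passed 2-fold upward and 0.87% downward.

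The paralogous tau tubulin kinase genes *R13H9.5* and *ttbk-2* (annotated as *ttbk-2.2* and *ttbk-2.1*), both on chromosome IV, differed in opposite directions. *R13H9.5* had 11.8 FPKM in WT polysomes, 1.44 in *wrm10* and 12.7 in *wrm15*, and differences of 3.06, 2.97 and 3.29 in polysome, total and monosome RNA. *ttbk-2* had 9.07, 22.9 and 10.6 FPKM and differences of -1.11, -0.93 and -1.14. Added together, the pair came to 20.9 FPKM in WT, 24.4 in *wrm10* and 23.3 in *wrm15* polysomes. In total RNA the sums were 12.9 FPKM in WT, 20.98 in *wrm10* and 21.4 in *wrm15*. In monosome RNA they were 16.8, 27.7 and 27.4 FPKM in the same order. The sum was thus close between the mutants, and WT was lower than both in these 2 fractions. Whether reads of one copy were counted for the other was not tested.

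**Figure D2:**
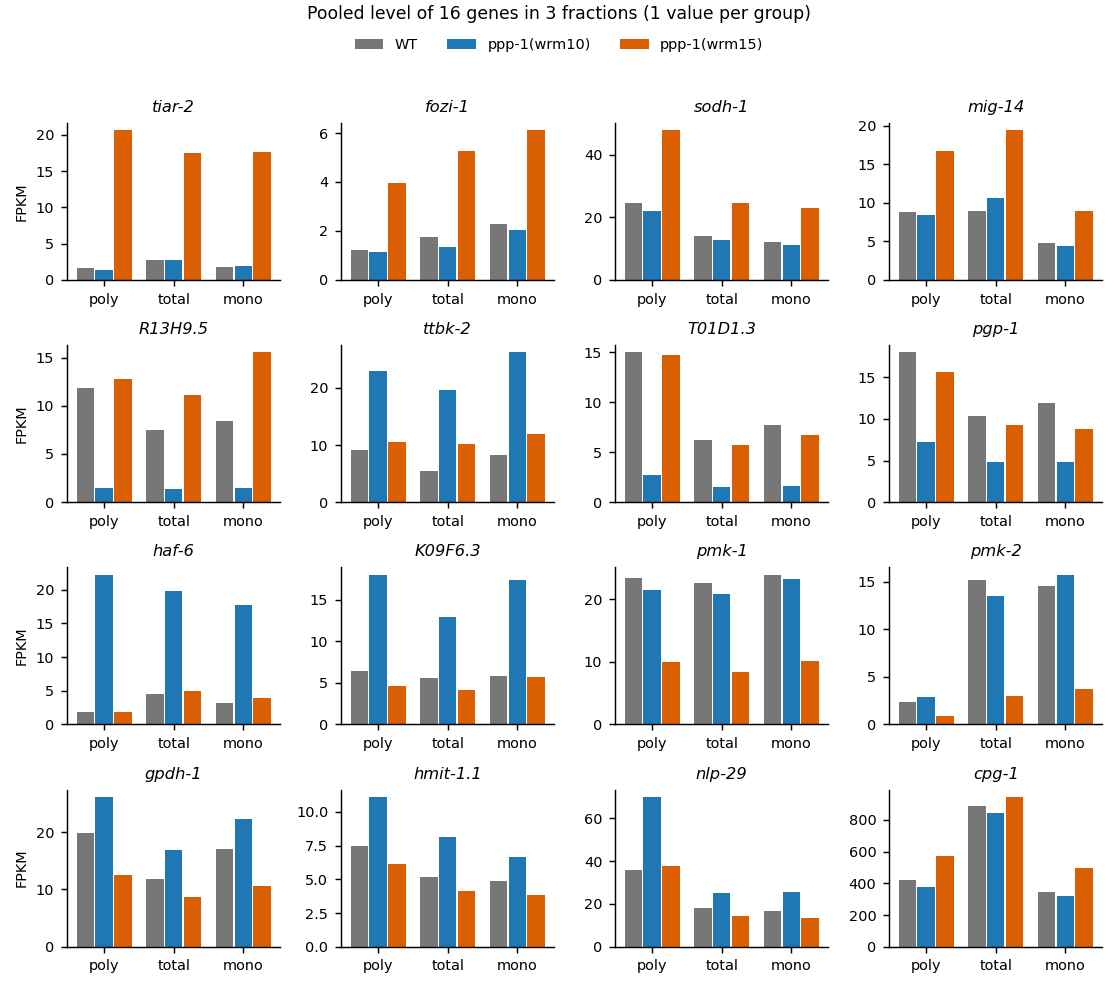
Bars give the pooled FPKM of 16 genes in polysome, total and monosome RNA of WT (grey), *wrm10* (blue) and *wrm15* (orange), 1 value per group with no error. In polysome RNA *tiar-2*, *fozi-1* and the *pmk* genes stand apart in *wrm15*, and *haf-6*, *K09F6.3*, *T01D1.3*, *R13H9.5* and *ttbk-2* in *wrm10*. The place of WT is not the same in each fraction for all of them. *R13H9.5* had 8.46 FPKM in WT and 15.5 in *wrm15* monosome RNA.

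The p38 MAP kinase genes *pmk-1*, *pmk-2* and *pmk-3*, which share an operon, were lower in *wrm15*. PMK-1 acts in the cascade of TIR-1, NSY-1 and SEK-1 that drives innate immune defence in the worm intestine. *pmk-1*, on chromosome IV, 8148794 to 8151266 on the plus strand, had 23.3 FPKM in WT polysomes, 21.5 in *wrm10* and 9.93 in *wrm15*. In total RNA the same groups had 22.6, 20.8 and 8.45 FPKM, and in monosome RNA 23.9, 23.3 and 10.1, so *wrm15* was lowest in each fraction. *pmk-2* was sparse in polysomes, at 2.40, 2.87 and 0.842 FPKM, and more abundant in total RNA, at 15.2, 13.5 and 3.03. *pmk-3* showed a polysome difference of -0.43, from 9.22 to 6.81 FPKM, and a total RNA difference of -1.47, from 16.7 to 5.96 FPKM. *islo-1*, next to them on the same strand, had differences of -0.64, -0.66 and -0.99 in polysome, total and monosome RNA.

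Beyond these 4, the other members within 40 kb of *pmk-1* were closer to 0, except *C07G1.15*. That low-level locus had 0.446 FPKM in *wrm10* and 1.91 in *wrm15* polysomes. Its differences were 1.88 in polysome, 0 in total and -0.57 in monosome RNA. On one side, *isp-1*, a Rieske iron-sulfur subunit of respiratory complex III, had a polysome difference of 0.04 and *moc-3* one of -0.18. On the other, *faah-2* had 0.01 in polysome, -0.21 in total and -0.31 in monosome RNA, and *faah-1* had -0.02, -0.20 and -0.22. The rest of the p38 cascade was also near 0 in polysomes, with -0.18 for *tir-1*, 0.01 for *nsy-1*, -0.04 for *sek-1*, -0.02 for the transcription factor gene *atf-7* and 0.01 for the phosphatase gene *vhp-1*. In a cascade list of 12 genes, which was drawn up after these values were seen, *pmk-1* and *pmk-2* alone passed 1.5-fold in polysomes.

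**Figure D3:**
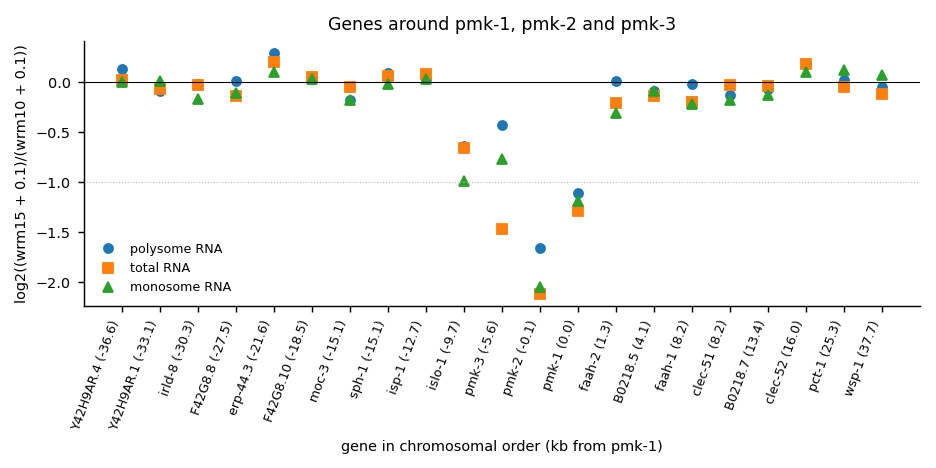
The x axis lists the members within 40 kb of *pmk-1* in chromosomal order, with the distance in kb in brackets, leaving out the low-level locus *C07G1.15*, and the y axis gives the log2 difference in polysome (circles), total (squares) and monosome RNA (triangles). The 4 loci from *islo-1* to *pmk-1* lie below 0 in every fraction, and the other loci shown lie between -0.31 and 0.29. *C07G1.15*, not shown, had 1.88 in polysome RNA.

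Genes of glycerol production were lower in *wrm15* than in *wrm10*, with WT in between for most. Worms make glycerol as an osmolyte under hyperosmotic stress, chiefly through the glycerol-3-phosphate dehydrogenase GPDH-1. *gpdh-1* stood at 19.8 FPKM in WT polysomes, 26.1 in *wrm10* and 12.5 in *wrm15*, with differences of -1.06, -0.96 and -1.08 in polysome, total and monosome RNA. The adjacent genes *F44E7.2* and *C53A3.2* are annotated as *pgph-2* and *pgph-3*, phosphoglycolate phosphatase homologs. *F44E7.2* had 15.7, 25.8 and 12 FPKM and *C53A3.2* had 19, 26.7 and 16.4. The myo-inositol transporter genes *hmit-1.1* and *hmit-1.2*, also known to be induced by osmotic stress, differed by -0.84 and -0.70 in polysomes and by -0.97 and -1.05 in total RNA. Their relatives *gpdh-2* (-0.06) and *hmit-1.3* (0.10) were near 0. A list of osmotic stress genes that was made after these values were seen had 7 members, of which 6 were below 0, 3 passed 1.5-fold downward and none upward, with a median of -0.51.

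Among lysozymes and antimicrobial peptides, more genes were lower than higher in *wrm15*. *nlp-29*, an antimicrobial peptide gene of the epidermis that responds to wounding, fungal infection and osmotic stress, had 35.8 FPKM in WT polysomes, 70.02 in *wrm10* and 37.6 in *wrm15*. Here *wrm10* was the group apart, and the difference was -0.90 in polysome, -0.81 in total and -0.91 in monosome RNA. *nlp-34* from the same cluster had 8.96, 19.5 and 12.2 FPKM, a polysome difference of -0.68, but -0.01 in monosome RNA. The invertebrate lysozyme gene *ilys-2* had 4.04 FPKM in *wrm10* and 1.78 in *wrm15*, and the lysozyme gene *lys-10* had 4.01 and 1.52. Of 81 members of the list of lysozymes and antimicrobial peptides, 5 were past 2-fold lower and none higher, 12 were past 1.5-fold lower and 3 higher, and the median was -0.12 against 0.03 over all members. Over all members 0.87% were past 2-fold lower and 0.569% higher, and 2.48% were past 1.5-fold lower and 1.43% higher. A list of fungus-induced peptide genes, made after these values were seen, had a median of -0.42, with 21 of 24 below 0. Its median was -0.19 in total and -0.49 in monosome RNA. In polysomes 2 of the 24 passed 1.5-fold upward and 6 downward. *fipr-6* (26.6 against 15.7 FPKM) and *fipr-20* (9.01 against 4.63) are examples, although *fipr-20* had 0.56 in monosome RNA. WT polysomes had 24.5 FPKM of *fipr-6*, near *wrm10*, but 0.981 of *fipr-20*, below both mutants. The *fipr* genes are short and lie in clusters of similar copies, so reads may be shared between them.

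Stress resistance lists as a whole were near the median of all members, and single genes stood out. Of 20 superoxide dismutases, catalases and metallothioneins, 12 were above 0, the median was 0.05, and *mtl-1* alone passed 1.5-fold. *mtl-1*, a metallothionein and a target of the FOXO factor DAF-16, had 0.0977 FPKM in WT polysomes, 0.231 in *wrm10* and 1.68 in *wrm15*. *fmo-2*, a flavin-containing monooxygenase induced by hypoxia signalling and dietary restriction, had 0.227, 0.300 and 1.62 FPKM. In both, total and monosome RNA differed in the same direction, by 2.23 and 1.81 for *mtl-1* and 2.08 and 1.72 for *fmo-2*. *tts-1*, a long non-coding RNA known from long-lived worms, had lower FPKM in polysome than in total RNA, with 0.524, 0.252 and 1.66 FPKM in polysome RNA and 12, 13.4 and 52.4 in total RNA. *dod-24*, a gene that is repressed by DAF-16, was highest in WT at 24.6 FPKM, followed by *wrm15* at 16.8 and *wrm10* at 9.62. In the list of insulin and FOXO pathway genes, 1 of 28 members passed 2-fold upward, which was again *mtl-1*. In that list 4 passed 1.5-fold upward and none downward, with a median of 0.10. Over all members 0.569% passed 2-fold and 1.43% passed 1.5-fold upward. *sod-3*, a classical DAF-16 target, had 2.78 FPKM in *wrm10* and 2.74 in *wrm15*.

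Digestive and lysosomal enzymes included genes that were higher in *wrm15*. The aspartyl protease gene *asp-8* stood at 27.2 FPKM in WT, 17.3 in *wrm10* and 33.1 in *wrm15*, and *asp-12* at 53.9, 46.4 and 71.0. The list of aspartyl and cysteine proteases, made after these values were seen, had 17 of 20 members above 0 and a median of 0.16. The lysosomal lipase genes *lipl-1* (0.99) and *lipl-2* (0.74) were low, at 1.78 and 1.2 FPKM in *wrm15*. Among 73 lipase and fatty acid oxidation genes, 3 passed 1.5-fold upward and none downward, against 1.43% and 2.48% of all members. The median of these 73 genes was 0.11.

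Oocyte and eggshell mRNAs were higher as a group in the polysomes of *wrm15*, by less than 2-fold. Of 28 oocyte and embryo genes 27 were above 0, with a median of 0.31, and of 16 eggshell and egg activation genes 15 were above 0, with a median of 0.33, against 0.03 over all members. *cpg-1*, which encodes a chondroitin proteoglycan of the eggshell, had 418 FPKM in WT polysomes, 379 in *wrm10* and 571 in *wrm15*, the only member of the 16 past 1.5-fold. *cpg-2* had 449, 439 and 627 FPKM. *rme-2*, the yolk receptor of the oocyte, had 165, 155 and 207, and the RNA-binding protein gene *oma-2* had 43.1, 49.0 and 66.1. *cpg-7* was the exception among the eggshell genes, at -0.09.

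The shift of these mRNAs was smaller in total RNA. The median of the oocyte and embryo list was 0.15 in total and 0.38 in monosome RNA, and that of the eggshell list 0.16 and 0.39. The 7 oocyte markers were all above 0 in the 3 fractions, with medians of 0.42, 0.12 and 0.47 in polysome, total and monosome RNA. Their summed level was 1167 FPKM in WT, 1087 in *wrm10* and 1519 in *wrm15* polysomes, and 2482, 2408 and 2643 in total RNA. The polysome minus total difference of these markers had a median of 0.31, against 0.03 over all members. In whole animals, more oocytes and more RNA per oocyte cannot be told apart. The part of ribosome loading in the polysome difference was not tested.

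Muscle, cuticle and neuropeptide mRNAs lay on the other side of the median. Of 34 muscle filament genes 32 were below 0, with a median of -0.16. Examples are the giant kinase gene *unc-89* (39 against 31.7 FPKM in *wrm10* and *wrm15*) and the troponin gene *tni-1* (61.0 against 48.5), and none passed 1.5-fold. The 6 body wall muscle markers were all below 0 in each fraction, and their summed polysome level was 2283 FPKM in WT, 1958 in *wrm10* and 1859 in *wrm15*. Of 131 cuticle collagens 97 were below 0, with a median of -0.11 in polysome and -0.26 in total RNA. Past 1.5-fold downward were 2.48% of all members and 4 of the 131 collagens. Their summed level nevertheless was 47005 FPKM in *wrm10* and 48991 in *wrm15* polysomes, so the sum went the other way from the median. Neuropeptide and insulin-like peptide genes had a median of -0.19, with 72 of 98 below 0. At 1.5-fold 12 were lower and 3 higher, against 2.48% and 1.43% of all members. At 2-fold 3 were lower and none higher, against 0.87% and 0.569% of all members. Those 3 were *nlp-56* (1.19 against 0.166 FPKM), *ins-24* (1.66 against 0.595) and *nlp-54* (1.17 against 0.466), all under 2 FPKM. The 8 neuron markers, which do not include peptides, had a median of -0.10 and summed to 125.8 FPKM in WT, 123.3 in *wrm10* and 121.6 in *wrm15* polysomes. The intestine markers, 8 of 8 above 0, summed to 11665, 9754 and 11056 FPKM in WT, *wrm10* and *wrm15*, with a median of 0.12. Intestine and body wall muscle thus had their highest polysome sums in WT, as did neuron, male germline and hypodermis markers. The oocyte, embryo and larval moulting markers did not. For the male germline the sums were 776, 502 and 538 FPKM in the same order, and the median of the 6 markers was 0.07. Larval moulting markers summed to 289, 322 and 291 FPKM with a median of -0.12, hypodermis markers to 1972, 1507 and 1705 FPKM with a median of 0.05, and embryo markers, of which 4 of 10 were members, to 13.5, 14.8 and 14.8 FPKM, with a median of -0.07 over the 4 and 3 of them below 0. The part of tissue composition in the differences of single genes was not tested.

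RNAs of the mitochondrial genome are not translated by cytosolic ribosomes, and those recovered in the polysome fraction were lower in *wrm15*. All 8 members were below 0, from -0.23 for *nduo-4* to -0.37 for *MTCE.7*, a mitochondrial rRNA locus. *ctc-1*, cytochrome c oxidase subunit I, had 853 FPKM in WT, 798 in *wrm10* and 636 in *wrm15* polysomes. The list had medians of -0.33 in polysome, 0.07 in total and -0.24 in monosome RNA, so total RNA did not show the difference. The nuclear respiratory chain genes, by contrast, had a median of 0.05 in polysomes, with 31 of 35 above 0.

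**Figure D4:**
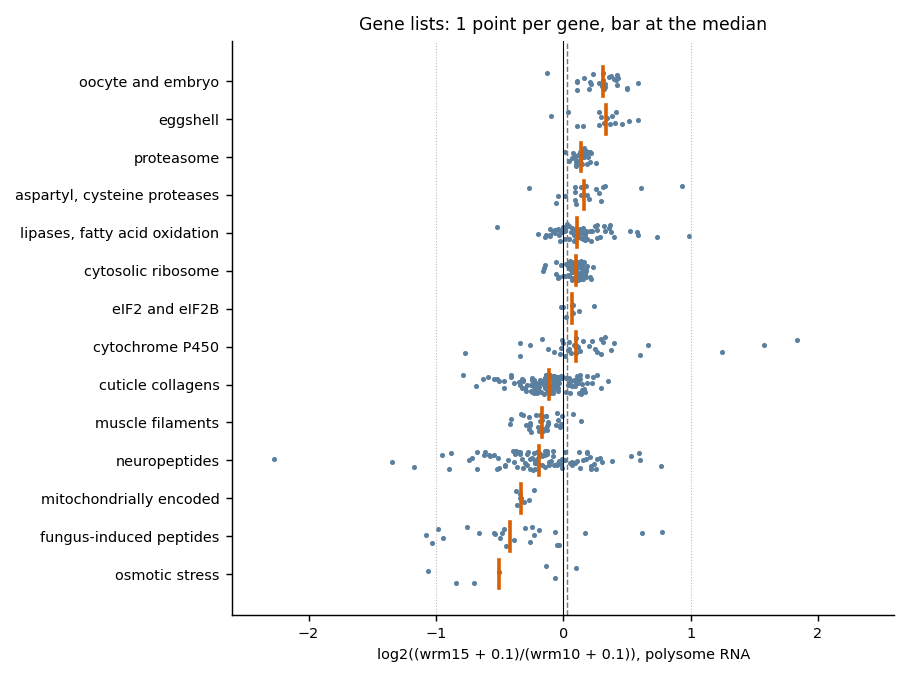
Each point is 1 gene of a list, at its log2 polysome difference between *wrm15* and *wrm10*, with the median as an orange bar. The dashed line is the median over all members, 0.03, and dotted lines mark 2-fold. Oocyte and eggshell genes lie to the right, and muscle, neuropeptide, mitochondrially encoded, fungus-induced and osmotic stress genes to the left.

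The translation machinery and the integrated stress response were alike in both mutants to within 1.5-fold. None of the 8 eIF2 and eIF2B subunits, 7 integrated stress response genes, 37 initiation and elongation factors, 30 aminoacyl-tRNA synthetases, 75 cytosolic and 62 mitochondrial ribosomal proteins passed that threshold in either direction. *ppp-1* itself, listed as *eif-2Bgamma* on chromosome II, 6965800 to 6967648 on the minus strand, had 33 FPKM in WT, 30.7 in *wrm10* and 31.1 in *wrm15* polysomes. As both alleles are point mutations, this does not check the labels. *atf-5*, the worm counterpart of ATF4, had 12, 11.8 and 9.87 FPKM. It had the widest polysome difference of the stress response list, -0.26, with -0.21 in total and 0.07 in monosome RNA. The eIF2 kinase genes *gcn-2* (14 against 14.4 FPKM) and *pek-1* (11.4 against 11.9) were close. So was the putative kinase gene *M04F3.3* (annotated as *kin-35*), at 10.5 and 10.3 FPKM in *wrm10* and *wrm15* and 4.67 in WT. *fem-1*, which carried a mutation in the screening strain, had 17.8 and 18.5 FPKM. Proteasome and cytosolic ribosomal protein genes leaned upward by small amounts, where 57.4% of all members were above 0. The 62 mitochondrial ribosomal protein genes did not lean, with 31 above 0 and 31 below 0 and a median of 0.001. All 32 proteasome subunit genes were above 0, with a median of 0.14 and a highest value of 0.25, and 66 of the 75 cytosolic ribosomal protein genes were above 0, with a median of 0.10.

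Total RNA, which the choice of members did not use, showed the same direction for most protein-coding genes past 2-fold. Of the 35 that were higher in polysomes, 31 were above 0 in total RNA and 13 passed 2-fold there. Of the 55 that were lower, 40 were below 0 and 19 passed 2-fold. Over all protein-coding members 54% were above 0 in total RNA. Across the 12303 members, 62 (0.504%) were 2-fold higher and 73 (0.593%) 2-fold lower in total RNA. In monosome RNA 27 of the 35 and 40 of the 55 kept the direction, 14 and 22 of them past 2-fold, with 47 (0.382%) and 133 (1.08%) past 2-fold over all members. At 1.5-fold in all 3 fractions, 35 members (0.284%) were higher and 58 (0.471%) lower in *wrm15*, 32 and 46 of them protein-coding. Across the 7878 members with at least 5 FPKM in all 6 mutant groups, polysome and total differences had a Pearson r of 0.50 and a Spearman rho of 0.51, and polysome and monosome differences 0.64 and 0.63. These are across genes, which are not independent replicates.

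A few protein-coding genes differed in one fraction and not in the other. *C33A12.3* had 41.3 and 40.3 FPKM in the polysomes of *wrm10* and *wrm15*, but 222 and 43.5 FPKM in their total RNA and 118.5 in that of WT. *frm-7*, a FERM domain gene, had 9.10 and 8.99 FPKM in polysomes against 17.3 and 40.3 in total RNA. *Y39B6A.5* was lower in *wrm15* polysomes, at 12.4 against 24.8 FPKM, and higher in total RNA, at 28.8 against 16.2. A short stretch of it overlaps *tsp-13* on the opposite strand, which had 1.47 FPKM in *wrm15* polysomes. *nspc-15*, of a small nematode-specific peptide family, had a difference of -1.1 in polysome and 0.76 in total RNA. The *pud* genes, near-identical pairs whose reads cannot be assigned with certainty, did not keep their direction either, since *pud-1.2* had 1.59 in polysome but -1.2 in monosome RNA and *pud-2.1* had -1.46 in total RNA.

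**Figure D5:**
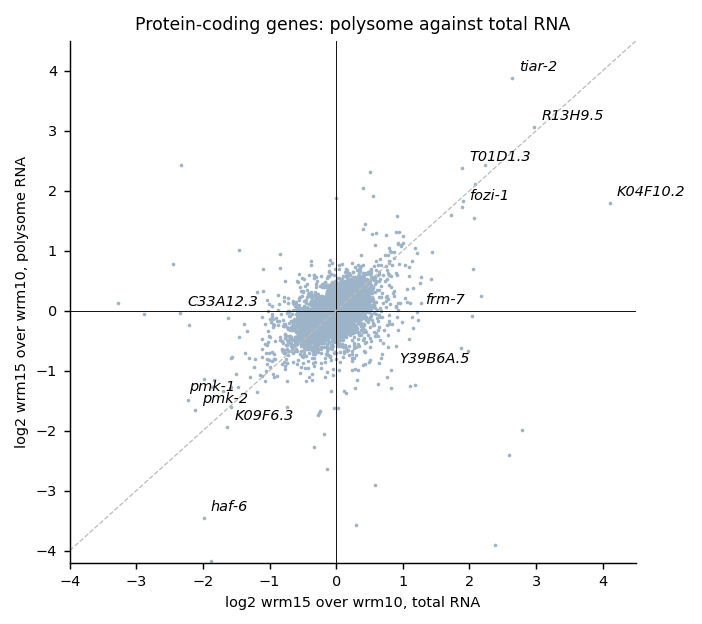
Each point is a protein-coding member, at its log2 difference between *wrm15* and *wrm10* in total RNA (x axis) and polysome RNA (y axis), and the dashed line marks equal differences. Labelled genes such as *R13H9.5*, *T01D1.3* and *pmk-1* lie near the line, while *frm-7* and *C33A12.3* lie near 0 in polysomes, and 2 genes, *Y54G2A.28* and *F32F2.4*, fall outside the axes.

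Loci other than protein-coding genes gave the most extreme polysome values. Of 238 non-coding RNA members, 30 were past 2-fold higher and 43 lower, with a median gene length of 118 bp among these 73. Of the 24 genes at the ends of the ranking with at least 5 FPKM, 1 was protein-coding and 23 were listed at 0 in 1 of the mutants. *C27H5.9*, one of the small nucleolar RNAs, a class that guides modification of other RNAs, had 465 FPKM in *wrm10* and was listed at 0 in *wrm15* and WT polysomes, with a difference of -0.68 in total RNA. *T10B9.11*, of the same class, had 270.2 and 243 FPKM in WT and *wrm10* and was listed at 0 in *wrm15*, yet was higher there in total RNA, by 1.03. *F32E10.10* was measured in all groups, at 259.6, 989.5 and 471 FPKM, and *ZK265.11* at 812, 770.4 and 223. Of the 87 loci past 2-fold that were not protein-coding, which include pseudogenes and loci with no annotated type, 11 of 35 higher and 29 of 52 lower ones had the same direction in total RNA. Over all 430 such members 44.0% were above 0 and 51.6% below 0 in total RNA, so these counts lie near or under the background. *linc-1*, a long intergenic non-coding RNA, had 7.12 and 3.68 FPKM in the mutants and a total RNA difference of -0.08.

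The loci past 2-fold were spread over all 6 nuclear chromosomes. By chromosome the share of members past 2-fold in either direction was 1.08% on I, 1.56% on II, 1.01% on III, 1.70% on IV, 1.90% on V and 1.29% on X. Protein-coding members were less even, with 0.39% on I, 0.69% on II, 0.42% on III, 1.29% on IV, 1.28% on V and 0.31% on X. Their share over all chromosomes was 0.758%. *ppp-1* lies on chromosome II, where 3 of the 323 members within 1 Mb of it passed 2-fold, or 0.929%. The protein-coding one among these was *C27H5.4*, 0.195 Mb away, with *cyp-13A4* next at 2.83 Mb. *tiar-2* lies 5.80 Mb and *T01D1.3* 6.79 Mb from *ppp-1*.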

How the data were processed

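The labels list 4 libraries per group, and the members use the 8 polysome libraries of both mutants. By the submitters' processing notes and the study's methods, the authors used HISAT2 2.1.0, StringTie 1.3.4d, Cuffmerge, Cuffquant and Cuffdiff (Cufflinks 2.2.1) on rRNA-depleted libraries and WBcel235. The deposited FPKM values are pooled per group by the authors. The sources used here give neither strandedness nor the normalization between libraries. The deposited table also holds the authors' log2 fold changes, statistics, p-values, q-values and calls, which were not used. It gives no counts, so depth and precision are unknown.

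Loci with joined names (3085) were left out. Gene types and coordinates come from the WBcel235 annotation of Ensembl release 115, in which 12037 members were matched by name and 166 by position (80% reciprocal overlap); 100 were not matched. Differences were computed with a pseudocount of 0.1 FPKM in Python 3.11.15 with pandas 2.3.3 and were tested on simulated data. No statistical test was run on the measured values.

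Genes were named by a rule: the 12 highest and 12 lowest differences with at least 5 FPKM in the higher mutant; the 10 most abundant past 2-fold in every fraction, per direction; up to 3 per list past 1.5-fold with at least 5 FPKM; the 5 highest and lowest polysome minus total differences; the 5 most abundant past 1.5-fold, per direction; and *ppp-1*, *atf-5*, *gcn-2*, *pek-1*, *M04F3.3*, *fer-15* and *fem-1*. *fer-15* was not analysed here, as no locus carried its name alone. Other named genes were chosen after their values were seen. The members and lists were chosen with earlier results of these data known. Alternatives changed the pseudocount, minimum, fold, centring, joined names and gene types.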

Additional observations from a re-analysis of the deposited data

How the results depend on the processing

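The count of members past 2-fold depends on the level allowed. With a minimum of 0.1 FPKM, 308 were higher and 349 lower in *wrm15*; with 5 FPKM 28 and 34; with 1 FPKM in both groups 21 and 27. At 1.5-fold the counts were 176 and 305, and at 4-fold 35 and 41. Protein-coding genes alone gave 35 and 55. A pseudocount of 1 FPKM gave 49 higher, within 1.5 times the main count, and 56 lower. On chromosome II, 33 of 2109 members passed 2-fold, and 19 of 1526 with a minimum of 5 FPKM. Without a pseudocount, centred on the median or with joined names, both counts stayed within 1.5 times of 70 and 107. With 1 FPKM in all 4 groups, 32 of 41 members past 2-fold had the same direction in total RNA (78.0%) and 35 of 42 in monosome RNA (83.3%), against 62.7% and 58.8% in the main comparison. Of the 75 genes named by the rule, *ppp-1* alone changed sign, from 0.02 to -0.01 when centred on the median; the genes named after their values were seen were not recomputed. No paired analysis was possible because the files used hold 1 pooled value per group, and for the same reason leaving out a replicate was not run.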

Other observations

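Further genes, chosen after their values were seen, were lower in *wrm15* than in *wrm10* by at least 1.5-fold in all 3 fractions. *dyf-3*, needed for building sensory cilia, had 2.54 FPKM in WT polysomes, 3.02 in *wrm10* and 1.69 in *wrm15*, and *gpa-1*, a G protein alpha subunit, had 1.71, 1.97 and 1.22. The calcium channel beta subunit gene *ccb-1* had 5.86 FPKM in *wrm10* and 3.73 in *wrm15*. *dos-1*, whose product is a secreted co-ligand of Notch, had 9.44 and 6.03 FPKM, and *pgp-14*, a P-glycoprotein of the pharynx, 13.9 and 8.82. The 8 neuron markers had a median of -0.10.

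C-type lectin genes, many of which are induced by bacteria, included a few that were higher in *wrm15*. Of 90 members 63 were above 0 in polysomes, with a median of 0.09, against 57.4% of all members. In total and monosome RNA 50 and 46 were above 0. In polysomes 3 passed 1.5-fold upward and 1 downward, against 1.43% and 2.48% of all members. *clec-4* stood at 38.2 FPKM in WT polysomes, 19 in *wrm10* and 30.7 in *wrm15*, so that *wrm10* was the lowest, and *clec-169* had 6.47, 3.75 and 6.03. *clec-196* was the one lower in *wrm15*, at 5.42 against 3.44 FPKM. *F11D11.3*, near 0 in WT polysomes at 0.121 FPKM, was present in both mutants, at 2.81 and 5.26 FPKM.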
